A study of Mus musculus with 12 samples.

Results

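The genes described here build and cut the extracellular matrix: collagen chains, laminin chains, matrix metalloproteinases (Mmp), the tissue inhibitors of metalloproteinases (Timp), ADAMTS proteases, lysyl oxidases (Lox and its relatives), and the matrix proteins Fn1, Dcn, Lum, Bgn, Sparc and Postn. They were chosen by symbol, from gene names that cover only part of the probes of an Illumina mouse BeadChip. A matrix gene whose probes carry no name here is therefore missing. The rule itself used no signal, but the members were chosen with earlier results of these data known. The rule found 67 genes of 10183 named genes, carried by 101 of the 14461 probes that name 1 gene. A gene was tested where 3 or more of the 12 arrays showed it above background, which held for 52 of them and for 8272 named genes in all. The other 15 were Adamts13, Adamts16, Adamts19, Col4a4, Col9a1, Col23a1, Col24a1, Col25a1, Col26a1, Lama1, Lama4, Mmp12, Mmp17, Mmp21 and Postn, each above background on 2 arrays or fewer.

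The samples were RNA of immortalized MEFs, fibroblasts taken from mouse embryos, a cell type that secretes matrix. The groups, with 3 arrays each, were Rictor-/- cells treated for 24 hours with 2500 U/ml of mouse IFN-alpha, a type I interferon (arrays 4, 8 and 12), untreated Rictor-/- cells (arrays 3, 7 and 11), Rictor+/+ cells given the same IFN-alpha (arrays 2, 6 and 10) and untreated Rictor+/+ cells (arrays 1, 5 and 9). Rictor is the subunit that defines mTOR complex 2, a protein kinase complex, and the study asked how its loss alters gene expression after IFN-alpha. The labels name no second line of either genotype, and genotype and line cannot be told apart. All groups grew in DMEM with FBS and gentamycin. A protocol field of every sample also speaks of siRNAs against Rictor. No label says that replicate arrays were separate cultures, so the p-values measure only the spread between arrays, which may be technical.

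Fibroblasts secrete fibrillar collagens as procollagen, which is hydroxylated and folded inside the cell, trimmed outside it, assembled into fibrils and cross-linked by lysyl oxidases. Fibronectin and small leucine-rich proteoglycans such as decorin and lumican organise these fibrils, while type IV collagens and laminins form the sheets of basement membranes. Metalloproteinases and ADAMTS proteases cut the same proteins, and Timp proteins block them.

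Total signal was 39160370 to 62338146 on 11 arrays and 21292305 on array 12, an IFN-treated Rictor-/- array. The background level split the arrays into a high set (arrays 1 to 6) and a low set (arrays 7 to 12), each holding all 4 groups, with 1 Rictor-/- array for every 2 Rictor+/+ arrays in the high set and the reverse in the low set. The labels name no batch, and values within each set are printed beside some of the leading results, not all. The Rictor probe exceeded background on 3 of the Rictor-/- and 4 of the Rictor+/+ arrays, and it checks nothing because its place relative to the deletion is unknown. Xist was detected on 6 Rictor-/- and 0 Rictor+/+ arrays, and the Y-linked Eif2s3y on 0 and 6, so the lines differ in their sex chromosomes as well, and 4 members (Timp1, Bgn, Col4a5 and Col4a6) lie on the X chromosome. Of 9 annotated fibroblast markers, 8 were above background on all Rictor-/- arrays, where Fap was below it, and 9 on all Rictor+/+ arrays. Markers of epithelial cells (Epcam), endothelial cells (Kdr) and blood cells (Csf1r and Lyz2) were above background on at most 2 of 3 arrays in any group.

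Levels below are log2 normalized intensities of a gene's brightest probe, and differences are log2 differences ± SE from limma, with 3 arrays a group. A gene is called higher or lower at a Benjamini-Hochberg adjusted p under 0.05 over all 17262 features, and an adjusted p is from this limma fit unless another setting is named. Values of a gene's further probes come from the same model fitted to all 20858 kept probes. Levels of different genes come from different probes and are not set against each other. In RNA from a whole culture, fewer cells that express a gene and less RNA per cell cannot be told apart.

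With IFN-alpha, 7 members were higher and 13 lower in Rictor-/- than in Rictor+/+ cells, 20 of 52 (38.5%), where 26.6% of all named genes tested were called in either direction (11.4% higher and 15.1% lower). Without treatment, 6 members were higher and 16 lower, 22 of 52 (42.3%), against 22.2% of named genes (10.6% higher and 11.6% lower). The median log2 difference of the 52 members was -0.43 with IFN-alpha and -0.31 without, beside -0.04 and -0.04 over all named genes. The filter keeps a dim gene where 1 line is bright, and 3 tested members (Col4a6, Col6a5 and Lum) were above background on no Rictor-/- array and 1 (Lamc3) on no Rictor+/+ array. Among the 38 members above background on all 12 arrays, 5 were higher and 10 lower with IFN-alpha, where 10.9% and 10.3% of such named genes were called. Without treatment 4 were higher and 10 lower, where 9.44% and 8.51% of such named genes were called. The count of lower members without treatment was 10 when Rictor-/- array 7 or array 11 was left out.

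Both comparisons called the same direction for 17 members: Adamts7, Col2a1, Col4a1, Col4a2, Mmp16 and Timp1 were higher in Rictor-/- cells, and Adamts1, Adamts9, Adamts12, Col1a1, Col1a2, Col3a1, Col4a6, Dcn, Fn1, Lox and Lum were lower. The 2 comparisons use different arrays but the same 2 lines. The share of all named genes called the same way in both was not counted, so the 17 members cannot be set against it. A further 5 members (Col5a1, Col6a5, Col8a2, Lama5 and Mmp9) were called only in untreated cells and 3 (Adamts10, Mmp3 and Timp3) only in treated cells. The difference between the lines in the response to IFN-alpha was called for 0 of 52 members by limma (3 higher and 3 lower at an unadjusted p under 0.05), where 0.701% of named genes were called, 0.0363% higher and 0.665% lower. No member was called in opposite directions. The groups did not overlap for 29 of 52 members with IFN-alpha and 31 without, where 42.4% and 45.8% of named genes did not overlap.

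**Figure D1:**
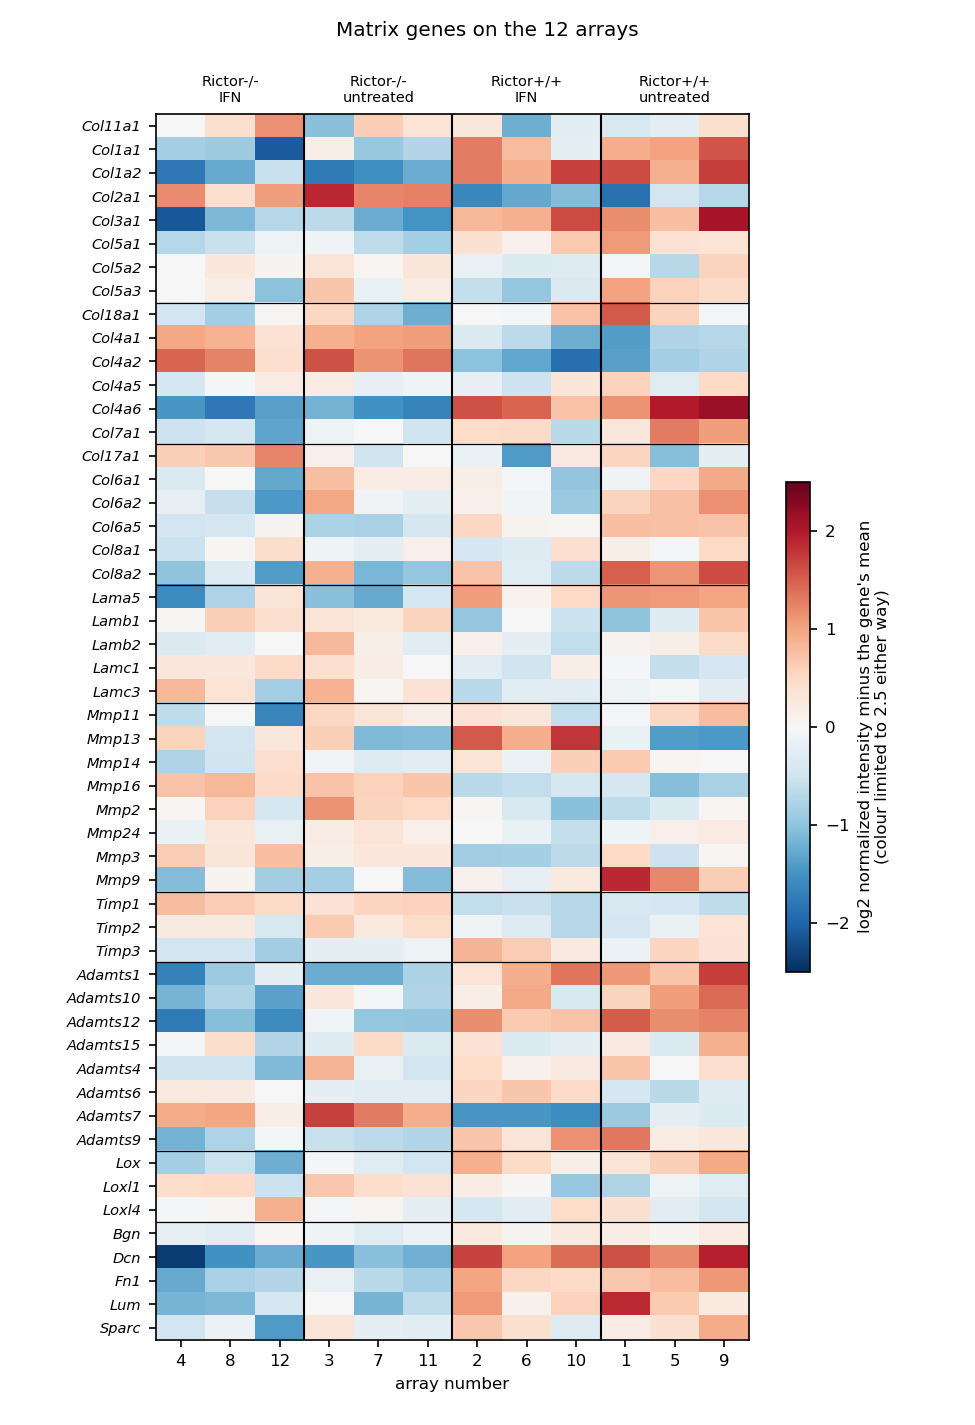
Log2 normalized intensity of the 52 tested matrix genes (rows, grouped by role) on each of the 12 arrays (columns, grouped by line and treatment), as the difference from each gene's mean, with red for above and blue for below. Col1a2, Col3a1, Dcn and Col4a6 are blue on the 6 Rictor-/- arrays and red on the 6 Rictor+/+ arrays, and Col4a1, Col4a2 and Timp1 the reverse.

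**Figure D2:**
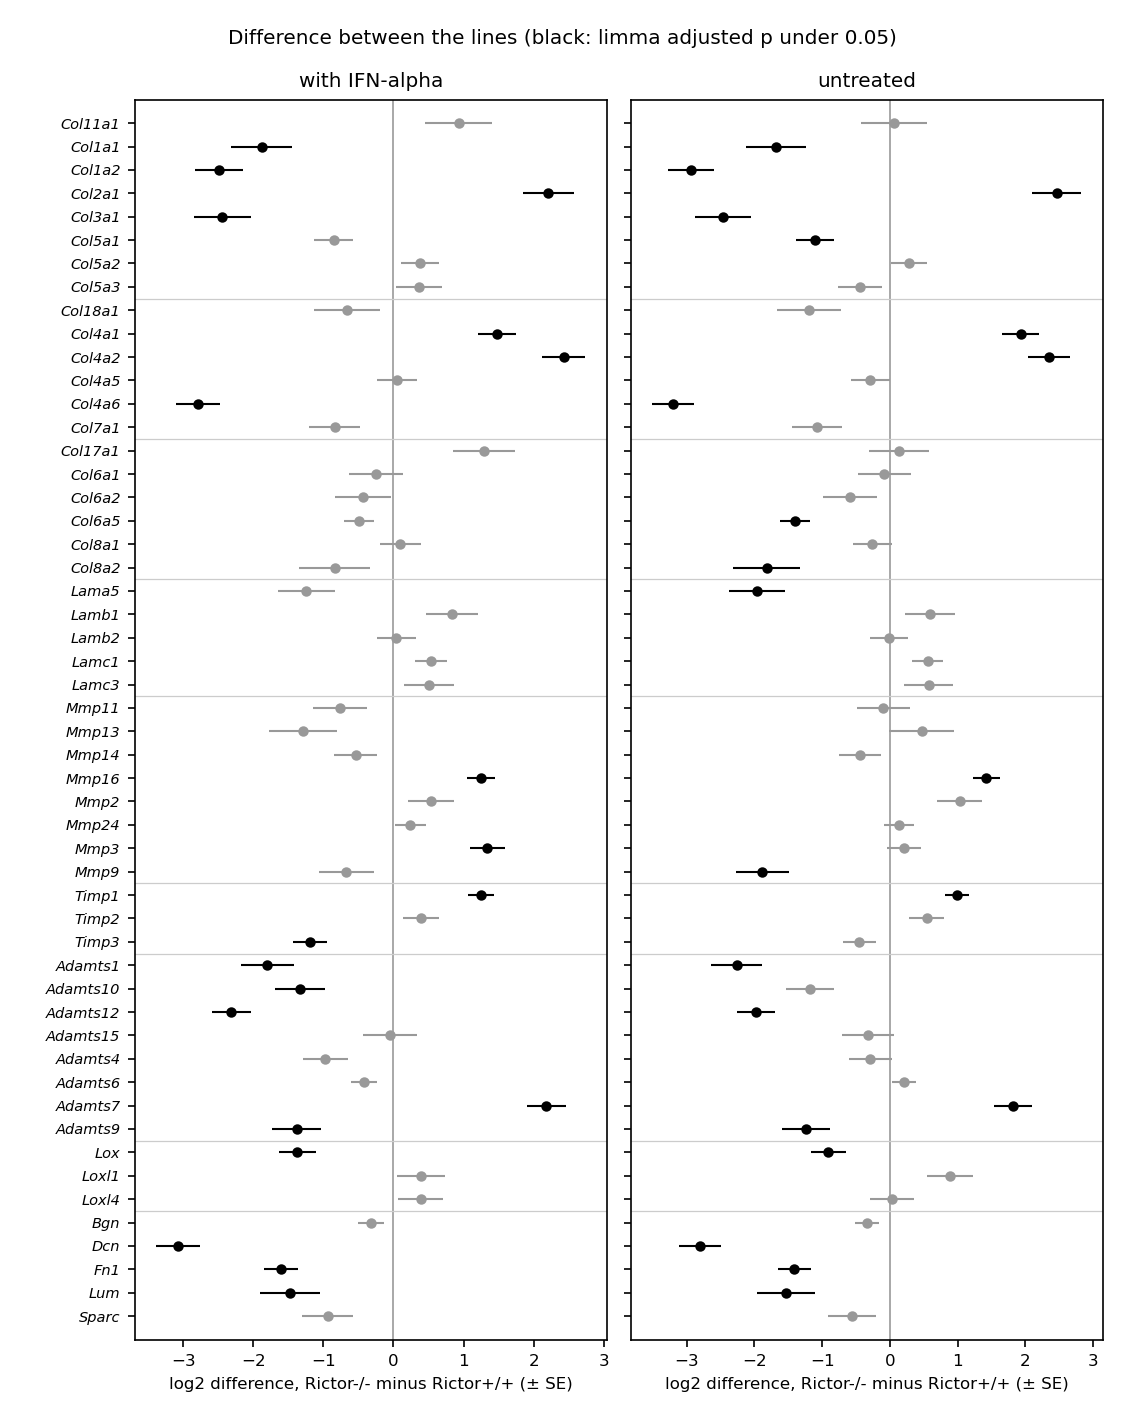
Log2 difference between Rictor-/- and Rictor+/+ cells (point) with its SE (bar) for each tested matrix gene, with IFN-alpha (left) and untreated (right). Black marks a limma adjusted p under 0.05. With IFN-alpha 7 genes lie right of 0 in black and 13 left, untreated 6 and 16.

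Col1a1, Col1a2 and Col3a1, the main fibrillar collagens of connective tissue, were lower in Rictor-/- cells, and the cartilage collagen Col2a1 was higher. Of 8 tested fibrillar chains, 1 was higher and 3 lower with IFN-alpha, and 1 was higher and 4 lower without. That is 50% and 62.5% called, where 26.6% and 22.2% of all named genes were called. Col1a1 and Col1a2 encode the chains of type I collagen, the main fibrillar collagen. With IFN-alpha Col1a2 measured 9.95, 10.47 and 11.18 in Rictor-/- cells and 13.00, 12.64 and 13.43 in Rictor+/+ cells. Untreated, it measured 9.96, 10.20 and 10.48 in Rictor-/- cells and 13.36, 12.62 and 13.46 in Rictor+/+ cells. Every Rictor-/- array lay below every Rictor+/+ array, by more than the spread within any group. The log2 difference was -2.49 ± 0.34 (5.61-fold, adjusted p = 1.92e-04) with IFN-alpha and -2.93 ± 0.34 (7.63-fold, adjusted p = 5.64e-05) without. Within the high and the low background set it was -2.86 and -2.64 with IFN-alpha, and -3.01 and -3.15 without.

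Col1a1 measured 12.88, 12.83 and 11.64 in treated Rictor-/- cells and 15, 14.51 and 13.47 in treated Rictor+/+ cells. Untreated, it measured 13.86, 12.76 and 12.99 in Rictor-/- cells and 14.63, 14.72 and 15.29 in Rictor+/+ cells. The lines did not overlap within a treatment, but arrays 12 and 10 were the lowest of their groups and array 3 the highest of its own. The difference was -1.88 ± 0.44 (3.68-fold, adjusted p = 0.0103) with IFN-alpha and -1.68 ± 0.44 (3.19-fold, adjusted p = 0.0226) without. The treated call was lost without Rictor+/+ array 2 (-1.47), and the untreated call without array 7, 11, 5 or 9 and with median scaling, all in the same direction. Untreated, the values were -0.78 in the high set and -2.49 in the low set.

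Col3a1, the type III collagen that forms fibrils with type I, measured 9.64, 10.63 and 11.03 in treated Rictor-/- cells and 12.59, 12.65 and 13.38 in treated Rictor+/+ cells. Its untreated values were 11.10, 10.51 and 10.26 in Rictor-/- cells and 12.91, 12.51 and 13.82 in Rictor+/+ cells. Again no Rictor-/- array reached the lowest Rictor+/+ array. The difference was -2.44 ± 0.41 (5.42-fold, adjusted p = 0.00112) with IFN-alpha and -2.46 ± 0.41 (5.49-fold, adjusted p = 0.00132) without. Within the high and low sets the Col3a1 difference was -2.98 and -2.58 with IFN-alpha, and -1.60 and -3.47 without. The calls for Col1a2 and Col3a1 stood in all 24 alternatives, although the size for untreated Col3a1 varied between the sets. Col5a2 lies next to Col3a1 on chromosome 1 and encodes a type V chain, and it was not called, with differences of 0.38 ± 0.27 and 0.28 ± 0.27. Col5a1, another type V chain, which limits fibril width, was lower in untreated cells (-1.11 ± 0.28, 2.16-fold, adjusted p = 0.0184), a call lost without array 7, 11 or 1. With IFN-alpha its difference was -0.85 ± 0.28 (adjusted p = 0.057). Col5a3, also a type V chain, and Col11a1 passed in neither comparison.

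Promoter sequences for Col1a2 and Col3a1 are shown because both genes were lower in Rictor-/- cells while their promoters share none of the motifs searched. They are RefSeq sequences of build GRCm38.p6, 250 bases before to 50 after the annotated start, with Col1a2 at chr6:4505368-4505667 and Col3a1 at chr1:45311288-45311587, both on the plus strand. Capitals mark matches on either strand to the letters TATAAA, known as the core promoter element bound by TATA-binding protein, to the letters CCAAT, the element bound by NF-Y, and to GGGCGG, called the GC box and bound by Sp factors.
Col1a2: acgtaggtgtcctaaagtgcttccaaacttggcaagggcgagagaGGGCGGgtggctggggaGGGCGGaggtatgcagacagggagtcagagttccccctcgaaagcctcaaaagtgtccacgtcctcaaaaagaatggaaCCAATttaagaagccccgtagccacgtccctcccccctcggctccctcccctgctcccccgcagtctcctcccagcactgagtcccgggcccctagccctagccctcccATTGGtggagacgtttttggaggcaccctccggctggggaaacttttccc
Col3a1: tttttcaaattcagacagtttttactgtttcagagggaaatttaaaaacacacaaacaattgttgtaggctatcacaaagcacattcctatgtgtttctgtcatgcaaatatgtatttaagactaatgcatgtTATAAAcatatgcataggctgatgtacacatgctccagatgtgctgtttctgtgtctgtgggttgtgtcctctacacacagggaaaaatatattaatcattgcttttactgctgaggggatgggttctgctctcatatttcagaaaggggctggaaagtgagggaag
Col1a2 has 2 CCAAT and 2 GC boxes and no TATAAA, and Col3a1 has 1 TATAAA, starting 117 bases before its start. Over 32851 RefSeq mouse promoters of this length, 13.6% hold a TATAAA, 37.4% a CCAAT and 35.7% a GGGCGG. A match describes letters in this window and is not a shown site.

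Col2a1, the type II collagen known from cartilage, measured 8.29, 7.53 and 8.16 in treated Rictor-/- cells and 5.50, 5.83 and 6.03 in treated Rictor+/+ cells. Untreated, it measured 8.99, 8.33 and 8.36 in Rictor-/- cells and 5.25, 6.66 and 6.39 in Rictor+/+ cells. It was above background on all 6 Rictor-/- arrays and on 3 of 6 Rictor+/+ arrays, so the size of its fold depends in part on the background. The difference was 2.21 ± 0.36 (4.62-fold, adjusted p = 8.1e-04) with IFN-alpha and 2.46 ± 0.36 (5.5-fold, adjusted p = 4.09e-04) without. All 3 Col2a1 probes gave differences between 1.68 and 2.46. Of 3 annotated cartilage markers, Sox9, the transcription factor that drives Col2a1 in cartilage, was higher too (1.54 ± 0.29, adjusted p = 0.00251, and 1.21 ± 0.29, adjusted p = 0.0141). Matn3 was below background on every array, and Acan was above it on 1 treated Rictor-/- and 1 untreated Rictor+/+ array. The summed linear level of the 3 markers was 9178 to 15571 in treated and 6995 to 12189 in untreated Rictor-/- cells, against 3178 to 5032 and 3585 to 4945 in treated and untreated Rictor+/+ cells. Nearly all of this sum came from the Sox9 probe, so it repeats the Sox9 difference and adds nothing on the other markers. The part of these markers in the Col2a1 result was not tested.

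**Figure D3:**
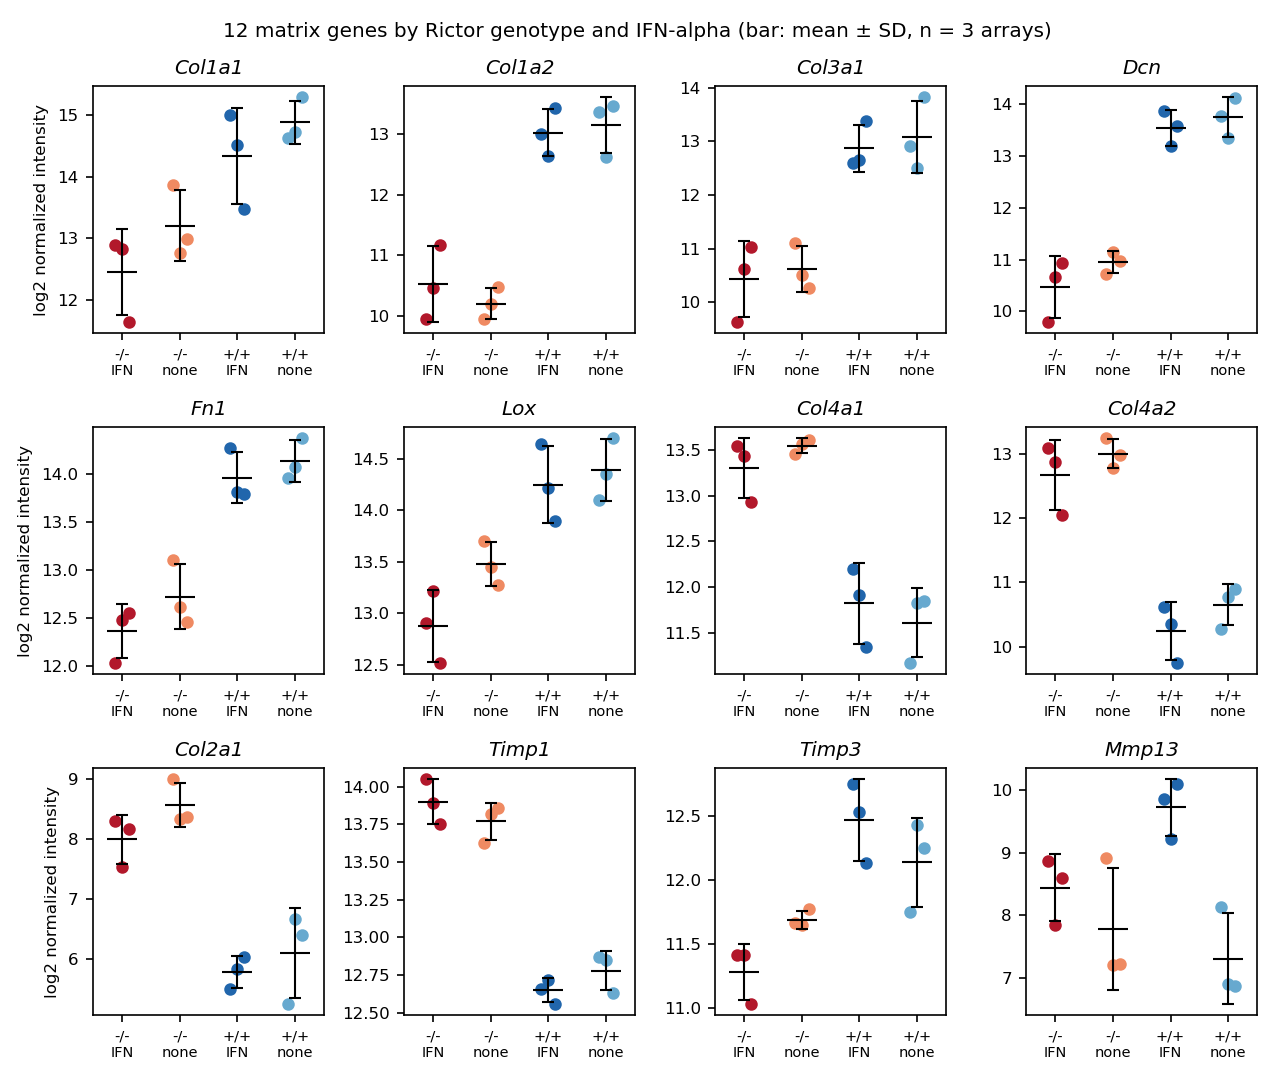
Log2 normalized intensity of 12 matrix genes on each array (points, by line and treatment, each panel with its own vertical range) with the mean and SD of 3 arrays (bar). Col1a1, Col1a2, Col3a1, Dcn, Fn1 and Lox are lower on all Rictor-/- arrays than on the Rictor+/+ arrays of the same treatment, Col4a1, Col4a2, Col2a1 and Timp1 are higher, and Mmp13 is highest in IFN-treated Rictor+/+ cells.

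The type IV collagens of basement membranes moved in opposite directions. Of 6 tested basement membrane chains, Col4a1 and Col4a2 were higher and Col4a6 lower in Rictor-/- cells, with and without IFN-alpha, and Col4a5, Col7a1 and Col18a1 were not called. Thus 50% of these chains were called in each comparison, where 26.6% and 22.2% of all named genes were called. Col4a1 and Col4a2 encode the chains of the common type IV collagen and lie head to head on chromosome 8. Col4a2 measured 13.09, 12.87 and 12.05 in treated Rictor-/- cells and 10.62, 10.35 and 9.75 in treated Rictor+/+ cells. Its untreated levels were 13.24, 12.77 and 12.98 in Rictor-/- cells and 10.28, 10.78 and 10.89 in Rictor+/+ cells. The lines were apart on every array. The difference was 2.43 ± 0.31 (5.39-fold, adjusted p = 1.18e-04) with IFN-alpha and 2.35 ± 0.31 (5.09-fold, adjusted p = 1.88e-04) without. Within the high and low sets it was 2.59 and 2.72 with IFN-alpha and 2.69 and 2.01 without.

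Col4a1 measured 13.54, 13.43 and 12.93 in treated Rictor-/- cells and 12.20, 11.91 and 11.34 in treated Rictor+/+ cells. Untreated, it measured 13.46, 13.57 and 13.61 in Rictor-/- cells and 11.17, 11.82 and 11.85 in Rictor+/+ cells. No array of one line reached the range of the other. The differences were 1.48 ± 0.27 (2.79-fold, adjusted p = 0.00213) and 1.93 ± 0.27 (3.82-fold, adjusted p = 3.25e-04), and median scaling ended the treated call. The promoters of this gene pair are printed because they overlap: the windows of Col4a1 (chr8:11312777-11313076, minus strand) and Col4a2 (chr8:11312555-11312854, plus strand) share 78 bases in build GRCm38.p6. Capitals mark the CCAAT and GC boxes defined above.
Col4a1: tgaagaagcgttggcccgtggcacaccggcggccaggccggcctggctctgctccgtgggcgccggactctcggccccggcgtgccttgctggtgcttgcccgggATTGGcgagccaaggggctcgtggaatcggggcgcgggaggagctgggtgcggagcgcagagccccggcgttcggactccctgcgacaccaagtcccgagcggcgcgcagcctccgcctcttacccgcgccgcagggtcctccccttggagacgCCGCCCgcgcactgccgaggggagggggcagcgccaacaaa
Col4a2: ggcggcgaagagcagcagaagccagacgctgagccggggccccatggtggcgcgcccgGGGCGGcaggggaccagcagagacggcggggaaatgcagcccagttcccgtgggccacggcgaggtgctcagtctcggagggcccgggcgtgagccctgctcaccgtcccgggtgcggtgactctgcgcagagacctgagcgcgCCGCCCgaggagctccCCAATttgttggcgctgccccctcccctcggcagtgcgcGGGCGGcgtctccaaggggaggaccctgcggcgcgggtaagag
Col4a1 holds 1 CCAAT and 1 GC box and Col4a2 holds 1 CCAAT and 3 GC boxes, counted on either strand, and the GC box that follows the Col4a1 start lies in the shared stretch. Neither window holds a TATAAA. Among the 36 tested members with a promoter in the RefSeq table, 27 hold a GGGCGG, 13 a CCAAT and 5 a TATAAA.

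Col4a6, a type IV chain that assembles with the Col4a5 chain, was below background on all 6 Rictor-/- arrays and above it on all 6 Rictor+/+ arrays. It measured 4.75 to 5.17 in treated Rictor-/- cells and 8.12, 7.99 and 7.24 in treated Rictor+/+ cells. Untreated, it measured 4.86 to 5.35 in Rictor-/- cells and 7.65, 8.51 and 8.69 in Rictor+/+ cells. It was therefore at least 2.66-fold lower with IFN-alpha (adjusted p = 3.23e-05) and at least 4.55-fold lower without (adjusted p = 1.15e-05), and a second Col4a6 probe was called the same way. Col4a5, its neighbour on the X chromosome in the opposite orientation, averaged 11.30 ± 0.32 (SD, n = 3) in treated Rictor-/- cells and 11.25 ± 0.42 in treated Rictor+/+ cells, a difference of 0.05 ± 0.29. Untreated, the Col4a5 difference was -0.29 ± 0.29. The brightest probe of Col7a1, the collagen of anchoring fibrils, gave -0.84 ± 0.37 (adjusted p = 0.15) and -1.07 ± 0.37 (adjusted p = 0.0768). A second, dimmer Col7a1 probe was called lower, with -1.97 ± 0.34 and -2.48 ± 0.34, so the probes of this gene share a direction and differ in size and call.

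Of 6 tested network, beaded-filament and other collagen chains, none was called with IFN-alpha and 2 (33.3%) were lower without it, where 11.6% of named genes were lower. Col8a2, a chain of the short-chain collagen VIII, measured 7.48, 5.45 and 5.63 in untreated Rictor-/- cells and 8.08, 7.70 and 8.22 in untreated Rictor+/+ cells. It was above background on 1 of the 3 Rictor-/- arrays, the difference was -1.82 ± 0.50 (adjusted p = 0.0303), and the call was lost with no filter on dim probes and without array 7, 11, 1, 5 or 9. Col6a5 was at least 1.38-fold lower in untreated Rictor-/- cells (adjusted p = 7.7e-04), in which it was below background. Col6a1 and Col6a2, chains of the widespread collagen VI, were not called, with differences of -0.25 ± 0.39 and -0.44 ± 0.40 with IFN-alpha.

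Laminins are basement membrane trimers of an alpha, a beta and a gamma chain. Of the 5 tested chains 1 was called: Lama5 was lower in untreated Rictor-/- cells. The called share was 0% with IFN-alpha and 20% without, below the 26.6% and 22.2% of all named genes. Lama5 measured 5.49, 5.27 and 6.09 in untreated Rictor-/- cells and 7.63, 7.59 and 7.52 in untreated Rictor+/+ cells, where the arrays lay close together. The difference was -1.96 ± 0.41 (3.90-fold, adjusted p = 0.006), with 1 of 3 Rictor-/- arrays above background. With IFN-alpha it was -1.24 ± 0.41 (adjusted p = 0.0581), and with the background set as a block that treated comparison passed (-1.35, adjusted p = 0.0478). The beta and gamma chains Lamb1 and Lamc1 differed by 0.84 ± 0.37 and 0.54 ± 0.23 with IFN-alpha, and by 0.59 ± 0.37 and 0.56 ± 0.23 without, none of them called.

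The adhesive glycoprotein fibronectin and the small proteoglycans decorin and lumican were lower in Rictor-/- cells, 3 of the 5 tested members of their group in both comparisons. That is 60% called in each, where 26.6% of all named genes were called with IFN-alpha and 22.2% without. Dcn, which binds collagen fibrils, measured 9.80, 10.67 and 10.94 in treated Rictor-/- cells and 13.87, 13.18 and 13.57 in treated Rictor+/+ cells. Untreated, it measured 10.73, 11.14 and 10.97 in Rictor-/- cells and 13.77, 13.35 and 14.12 in Rictor+/+ cells. The gap between the lines was wider than the range of either. The difference was -3.07 ± 0.31 (8.39-fold, adjusted p = 1.48e-05) with IFN-alpha and -2.80 ± 0.31 (6.96-fold, adjusted p = 4.26e-05) without, and it stayed between -3.70 and -2.43 in all alternatives and sets. All 3 Dcn probes were called lower in both comparisons.

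Lum, the neighbour of Dcn on chromosome 10, was below background on all 6 Rictor-/- arrays and above it on 5 of 6 Rictor+/+ arrays. It was at least 1.20-fold lower with IFN-alpha (adjusted p = 0.0315) and at least 1.85-fold lower without (adjusted p = 0.0318). With the background set as a block neither call stood (-1.35, adjusted p = 0.0555, and -1.40, adjusted p = 0.0529). Each was also lost with no background correction, with no filter on dim probes, and when any of 4 single arrays was left out (4, 8, 2 or 10 with IFN-alpha, and 7, 11, 1 or 5 without). A second, dimmer Lum probe was called in neither comparison (-0.97 ± 0.37, adjusted p = 0.0891, and -0.80 ± 0.37, adjusted p = 0.175).

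Fn1 measured 12.03, 12.48 and 12.55 in treated Rictor-/- cells and 14.27, 13.81 and 13.79 in treated Rictor+/+ cells. Untreated, it measured 13.10, 12.61 and 12.45 in Rictor-/- cells and 13.96, 14.07 and 14.37 in Rictor+/+ cells. The highest Rictor-/- array, array 3, stayed below the lowest Rictor+/+ array. The difference was -1.60 ± 0.24 (3.03-fold, adjusted p = 5.12e-04) with IFN-alpha and -1.41 ± 0.24 (2.66-fold, adjusted p = 0.00166) without. Untreated, it was -0.89 in the high set and -1.89 in the low set. Bgn, the proteoglycan biglycan, averaged 15.55 ± 0.17 (SD, n = 3) in treated Rictor-/- cells and 15.87 ± 0.10 in treated Rictor+/+ cells and was not called (-0.32 ± 0.18). Its raw signal reached 93.3% of the highest signal on an array, which can compress a difference. Sparc, a collagen-binding glycoprotein, differed by -0.94 ± 0.36 with IFN-alpha (adjusted p = 0.0988) and -0.56 ± 0.36 without (adjusted p = 0.357), while 1 of its 3 probes was called lower with IFN-alpha (-1.12 ± 0.28).

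Among the enzymes that cross-link collagen and elastin, Lox was lower and Loxl1 and Loxl4 were not called by their brightest probes. That is 33.3% of the 3 tested in each comparison, where 26.6% and 22.2% of all named genes were called. Lox measured 12.91, 13.22 and 12.52 in treated Rictor-/- cells and 14.64, 14.22 and 13.90 in treated Rictor+/+ cells. Untreated, it measured 13.70, 13.45 and 13.28 in Rictor-/- cells and 14.10, 14.35 and 14.70 in Rictor+/+ cells. The lines did not overlap, and the gap was narrower in untreated cells. The difference was -1.37 ± 0.26 (2.59-fold, adjusted p = 0.00272) with IFN-alpha and -0.91 ± 0.26 (1.88-fold, adjusted p = 0.0357) without. The untreated call was lost with the background set as a block (-0.87, adjusted p = 0.0544), with median scaling, with no filter on dim probes, and without array 7, 11, 6, 5 or 9. A second Loxl4 probe was called higher (1.19 ± 0.22 and 0.93 ± 0.22), where the brightest gave 0.39 ± 0.32 and 0.03 ± 0.32.

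Of 8 tested metalloproteinases, Mmp16 was higher in Rictor-/- cells with and without IFN-alpha, Mmp3 was called higher in treated cells and Mmp9 was called lower in untreated cells. The called share, 25% in each comparison, was near that of all named genes, 26.6% with IFN-alpha and 22.2% without. Mmp16, a membrane-bound metalloproteinase, measured 9.35, 9.46 and 9.12 in treated Rictor-/- cells and 7.97, 8.03 and 8.20 in treated Rictor+/+ cells. Untreated, it measured 9.36, 9.21 and 9.33 in Rictor-/- cells and 8.22, 7.58 and 7.83 in Rictor+/+ cells. The lines were well apart in both treatments. The difference was 1.25 ± 0.20 (2.37-fold, adjusted p = 9.29e-04) with IFN-alpha, a call that median scaling ended, and 1.42 ± 0.20 (2.68-fold, adjusted p = 3.92e-04) without. Mmp3, a stromelysin that cuts many matrix proteins, measured 8.16, 7.85 and 8.30 in treated Rictor-/- cells and 6.68, 6.72 and 6.89 in treated Rictor+/+ cells. Untreated, it measured 7.71, 7.81 and 7.81 in Rictor-/- cells and 8.06, 7.04 and 7.60 in Rictor+/+ cells. The treated groups were apart and the untreated groups overlapped. The difference was 1.34 ± 0.25 (2.53-fold, adjusted p = 0.00221) with IFN-alpha, not called with median scaling, and 0.21 ± 0.25 without. The difference between the IFN-alpha responses of the lines was 1.13 ± 0.35 for Mmp3 and was not called (adjusted p = 0.491). A second Mmp3 probe was called higher with IFN-alpha (1.19 ± 0.29) and not without (0.37 ± 0.29). The dimmest Mmp3 probe was called in neither (0.67 ± 0.54 with IFN-alpha and 1.24 ± 0.54 without). Its difference of responses had the other sign, -0.57 ± 0.76, so the probes of this gene disagree.

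Mmp9, a gelatinase, measured 5.35, 6.19 and 5.11 in untreated Rictor-/- cells and 8.09, 7.40 and 6.81 in untreated Rictor+/+ cells. It was above background on 1 of the 3 Rictor-/- arrays, and the difference was -1.88 ± 0.39 (3.68-fold, adjusted p = 0.00556). With IFN-alpha its difference was -0.67 ± 0.39 (adjusted p = 0.281), and the difference of the responses, 1.20 ± 0.55, was not called (adjusted p = 0.902). Mmp2, a gelatinase that Mmp14 helps to activate, averaged 14.19 ± 0.35 (SD, n = 3) in untreated Rictor-/- cells and 13.15 ± 0.34 in untreated Rictor+/+ cells. These Mmp2 groups did not overlap, and the difference of 1.03 ± 0.33 was not called (adjusted p = 0.0588), but 8 of the 24 alternatives called it, at values of 0.89 to 1.06. Mmp14, a membrane-bound metalloproteinase, differed by -0.54 ± 0.31 with IFN-alpha and -0.44 ± 0.31 without, neither called.

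Of the 3 tested inhibitors, Timp1 was higher in both comparisons, Timp3 was lower with IFN-alpha only, and Timp2 was called in neither. That is 66.7% called with IFN-alpha and 33.3% without, where 26.6% and 22.2% of all named genes were called. Timp1, a secreted inhibitor of many metalloproteinases, measured 14.05, 13.89 and 13.75 in treated Rictor-/- cells and 12.66, 12.72 and 12.56 in treated Rictor+/+ cells. Untreated, it measured 13.63, 13.82 and 13.86 in Rictor-/- cells and 12.87, 12.85 and 12.63 in Rictor+/+ cells. Replicate arrays lay close together and the lines were clearly apart. The difference was 1.25 ± 0.18 (2.38-fold, adjusted p = 3.22e-04) with IFN-alpha and 0.99 ± 0.18 (1.98-fold, adjusted p = 0.00233) without, both ended by median scaling, in the same direction. Timp3, the inhibitor that binds to the matrix and also blocks ADAMTS proteases, measured 11.41, 11.41 and 11.03 in treated Rictor-/- cells and 12.75, 12.53 and 12.13 in treated Rictor+/+ cells. Untreated, it measured 11.66, 11.65 and 11.77 in Rictor-/- cells and 11.75, 12.43 and 12.25 in Rictor+/+ cells, where the groups overlapped. The Timp3 difference was -1.19 ± 0.24 (2.28-fold, adjusted p = 0.00359) with IFN-alpha and -0.45 ± 0.24 (adjusted p = 0.255) without. The difference of the responses was -0.74 ± 0.33 (adjusted p = 0.887). Timp2 was not called, with 0.39 ± 0.26 and 0.54 ± 0.26.

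Of 8 tested ADAMTS proteases, secreted enzymes with thrombospondin repeats, 1 was higher and 4 were lower with IFN-alpha, and 1 was higher and 3 lower without. That is 62.5% and 50% called, where 26.6% and 22.2% of all named genes were called. Adamts7 was the one higher and its relative Adamts12 was lower, although both are known to cut the matrix protein COMP. Adamts7 measured 8.60, 8.65 and 7.84 in treated Rictor-/- cells and 6.22, 6.22 and 6.11 in treated Rictor+/+ cells. Untreated, it measured 9.38, 8.97 and 8.58 in Rictor-/- cells and 6.75, 7.42 and 7.33 in Rictor+/+ cells. The differences were 2.18 ± 0.28 (4.53-fold, adjusted p = 1.35e-04) and 1.81 ± 0.28 (3.5-fold, adjusted p = 7.59e-04), with no overlap between the lines. Adamts7 was above background on 2 of 3 treated Rictor+/+ arrays, so the size of its fold depends in part on the background. With the authors' deposited values the differences were smaller, 1.03 and 1.04, and still called.

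Adamts12 measured 6.78, 7.48 and 6.97 in treated Rictor-/- cells and 9.70, 9.20 and 9.25 in treated Rictor+/+ cells. Untreated, it measured 8.47, 7.58 and 7.55 in Rictor-/- cells and 10.06, 9.70 and 9.78 in Rictor+/+ cells. The differences were -2.31 ± 0.28 (4.95-fold, adjusted p = 8.72e-05) and -1.98 ± 0.28 (3.95-fold, adjusted p = 3.93e-04), again with no overlap. Adamts1 and Adamts9, which cut large proteoglycans such as versican, were lower as well. Adamts1 differed by -1.80 ± 0.38 (3.49-fold, adjusted p = 0.00586) with IFN-alpha and -2.26 ± 0.38 (4.78-fold, adjusted p = 0.00149) without. Adamts9 differed by -1.38 ± 0.35 (adjusted p = 0.0168) and -1.24 ± 0.35 (adjusted p = 0.0333). The Adamts9 calls were lost with the mean of its probes, and without array 4, 8 or 10 with IFN-alpha or array 3, 7, 11 or 1 untreated. A second, dimmer Adamts9 probe was called in neither comparison (-0.23 ± 0.45 and -0.35 ± 0.45). Adamts10, which acts on microfibrils, was at least 1.20-fold lower with IFN-alpha (adjusted p = 0.0247), a call lost without array 4, 12, 2 or 6, with cyclic loess, with no background correction and with the authors' deposited values. Adamts4, Adamts6 and Adamts15 were called in neither comparison of the lines by their brightest probes, and a second Adamts6 probe was lower with IFN-alpha (-1.20 ± 0.39, adjusted p = 0.0472).

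The share of members called for IFN-alpha itself was near that of all named genes. In Rictor-/- cells 0 of 52 members were called by limma (1 higher and 8 lower at an unadjusted p under 0.05), where 1.33% of named genes were called, 1.28% higher and 0.0484% lower, and 0.834% of all features. In Rictor+/+ cells 2 of 52 members rose and none fell (3.85% called, with 7 lower at an unadjusted p under 0.05), where 4.06% of named genes were called, 3.55% higher and 0.508% lower. The median log2 response of the 52 members was -0.21 in Rictor-/- and -0.29 in Rictor+/+ cells, beside -0.04 and -0.05 over named genes. The responses use the same arrays as the comparisons of the lines and are not independent of them.

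Mmp13, a collagenase that cuts fibrillar collagen, was the member with the largest called response. In Rictor-/- cells it measured 8.87, 7.84 and 8.60 with IFN-alpha and 8.91, 7.21 and 7.23 without. In Rictor+/+ cells it measured 9.85, 9.22 and 10.10 with IFN-alpha and 8.14, 6.91 and 6.88 without. The Rictor-/- groups overlapped, with array 3 as high as the treated arrays, and the Rictor+/+ groups did not. The response was 0.65 ± 0.48 (adjusted p = 0.813) in Rictor-/- cells and 2.41 ± 0.48 (5.32-fold, adjusted p = 0.0147) in Rictor+/+ cells, and their difference, -1.76 ± 0.68, was not called (adjusted p = 0.812). The Rictor+/+ call was lost without array 2, 10, 5 or 9, at values of 2.21 to 2.83 over all single arrays left out. Within the high and low sets the Rictor+/+ response was 2.05 and 3.12.

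Adamts6, a relative of Adamts10, measured 8.60, 8.57 and 8.35 with IFN-alpha and 8.12, 8.06 and 8.08 without in Rictor-/- cells. In Rictor+/+ cells it measured 8.89, 9.05 and 8.83 with IFN-alpha and 7.93, 7.67 and 8.02 without. Treated and untreated arrays did not overlap in either line. The response was 0.42 ± 0.18 (adjusted p = 0.738) in Rictor-/- cells and 1.05 ± 0.18 (2.07-fold, adjusted p = 0.00481) in Rictor+/+ cells, the second of which median scaling ended as a call. Their difference was -0.63 ± 0.25 (adjusted p = 0.841). A second Adamts6 probe gave 1.30 ± 0.39 in Rictor+/+ cells, not called (adjusted p = 0.142).

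**Figure D4:**
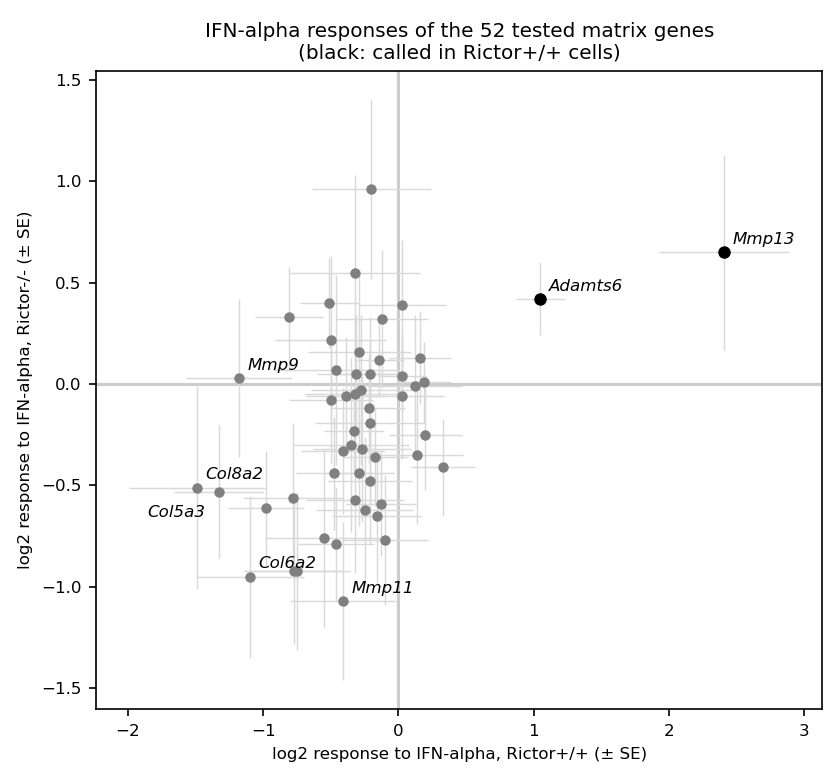
Log2 response to IFN-alpha of each of the 52 tested matrix genes in Rictor-/- cells (vertical axis) and in Rictor+/+ cells (horizontal axis), with SE bars. Black points are the genes called in Rictor+/+ cells, Mmp13 (0.65 in Rictor-/- and 2.41 in Rictor+/+ cells) and Adamts6 (0.42 and 1.05). No gene was called in Rictor-/- cells.

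Mmp13 and Mmp3 lie in the same cluster of metalloproteinase genes on chromosome 9, and their promoters are printed because both hold the AP-1 motif (TGAGTCA) while only Mmp13 holds the interferon-response motif searched, GAAA repeated after any 2 bases. They are RefSeq sequences of build GRCm38.p6 on the plus strand, with Mmp13 at chr9:7272264-7272563 and Mmp3 at chr9:7445572-7445871. Capitals mark these motifs and TATAAA on either strand.
Mmp13: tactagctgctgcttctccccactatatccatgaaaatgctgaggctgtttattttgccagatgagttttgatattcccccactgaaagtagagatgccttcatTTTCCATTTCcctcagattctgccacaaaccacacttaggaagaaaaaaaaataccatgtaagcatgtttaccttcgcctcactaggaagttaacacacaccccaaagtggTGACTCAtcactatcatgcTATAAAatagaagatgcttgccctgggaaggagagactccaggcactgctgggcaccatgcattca
Mmp3: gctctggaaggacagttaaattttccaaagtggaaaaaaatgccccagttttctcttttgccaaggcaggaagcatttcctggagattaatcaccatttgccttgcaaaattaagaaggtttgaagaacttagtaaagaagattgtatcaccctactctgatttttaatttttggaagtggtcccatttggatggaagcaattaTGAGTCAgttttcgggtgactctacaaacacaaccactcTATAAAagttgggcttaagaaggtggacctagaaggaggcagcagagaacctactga
The AP-1 motif starts 35 bases before the annotated start in Mmp13 and 46 bases before it in Mmp3, and the interferon-response motif of Mmp13 starts 146 bases before. TGAGTCA is found in 5.2% of the 32851 promoters and the interferon-response motif in 3.4%, and in 3 and 1 of the 36 promoters of tested members. These are matches of letters, not shown binding.

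Genes that fold and process collagen, other matrix proteins, matrix receptors and TGF-beta genes were listed to show the surroundings of the members. Of 19 tested folding and processing genes, 1 was higher and 4 lower in Rictor-/- cells with IFN-alpha, and 1 higher and 2 lower without, with a median of -0.44 and -0.30. The called shares, 26.3% and 15.8%, were near or below those of all named genes, 26.6% and 22.2%. P4ha2, a catalytic subunit of collagen prolyl hydroxylase, was 4.07-fold lower with IFN-alpha (-2.03 ± 0.17, adjusted p = 2.75e-06) and 4.91-fold lower without (-2.29 ± 0.17, adjusted p = 1.06e-06). Serpinh1, the collagen chaperone, was lower by 1.89-fold and 1.70-fold, and Plod1, a lysyl hydroxylase, was higher by 2.85-fold and 4.27-fold. Of the lists, the other matrix proteins had the lowest median, -1.75 with IFN-alpha and -1.41 without: 2 of 24 were higher and 17 lower with IFN-alpha, and 2 higher and 16 lower without, in all 79.2% and 75% of the list. Spon2, a secreted matrix protein, was at least 16.3-fold and at least 25.3-fold lower, and Ogn, a small proteoglycan, 12.2-fold and 5.53-fold lower. Emilin2 (8.06-fold and 9.51-fold) and the proteoglycan gene Cspg4 (7.22-fold and 6.76-fold) were higher. Cspg4 was above background on 2 of 3 arrays in each Rictor+/+ group, and Emilin2 on 2 of 3 untreated Rictor+/+ arrays.

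Of 21 integrin chains and other matrix receptors, 5 were higher and 4 lower with IFN-alpha (42.9% called), and 7 higher and 3 lower without (47.6%). Of all named genes, 26.6% were called with IFN-alpha and 22.2% without, the shares to set beside each list in this paragraph. Itga11, the alpha chain of a collagen-binding integrin, was below background on all Rictor-/- arrays and at least 41.7-fold lower with IFN-alpha and at least 42.1-fold lower without. Itga1, of another collagen-binding integrin, was at least 1.26-fold lower with IFN-alpha and 2.88-fold lower without, where 1 of 3 Rictor-/- arrays was above background. Itga7, of a laminin-binding integrin, was higher by 5.85-fold and 6.69-fold, and the hyaluronan receptor Cd44 by 5.56-fold and 4.44-fold. Itga7 exceeded background on 1 of 3 treated and 2 of 3 untreated Rictor+/+ arrays, so its folds depend in part on the background. Of 16 TGF-beta ligands, receptors and mediators, 2 were higher and 3 lower with IFN-alpha, and 2 higher and 1 lower without. These were 31.2% and 18.8% of the list, near the shares of all named genes. Of the ligands, Tgfb3 was higher (1.10 ± 0.28 and 1.61 ± 0.28) and Tgfb2 lower (-0.99 ± 0.23 and -1.39 ± 0.23). Tgfb1 was at least 2.39-fold lower with IFN-alpha (adjusted p = 0.0362) and was not called without (-1.56 ± 0.51, adjusted p = 0.0629). Of 15 other matrix proteases and inhibitors, 3 were higher and 4 lower with IFN-alpha (46.7% called), and 3 higher and 2 lower without (33.3%). Htra1, a secreted serine protease, was 5.13-fold and 6.98-fold higher, and Fap, a membrane protease that also marks fibroblasts, was at least 3.27-fold and at least 5.24-fold lower. Of these lists, the genes that rose with IFN-alpha in Rictor+/+ cells were Agrn, a basement membrane proteoglycan (2.19 ± 0.38, 4.56-fold, adjusted p = 0.0056), Sdc3 (1.45 ± 0.24), Ltbp1 (0.95 ± 0.21) and Hpse (1.08 ± 0.25). Each was the only gene called in its list, 4.17% to 6.67% of a list, where 3.55% of all named genes rose. In Rictor-/- cells none was called: Agrn gave 1.63 ± 0.38 (adjusted p = 0.109), and Sdc3, Ltbp1 and Hpse gave -0.22 ± 0.24, 0.13 ± 0.21 and 0.04 ± 0.25. The difference of responses was not called for any of them.

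**Figure D5:**
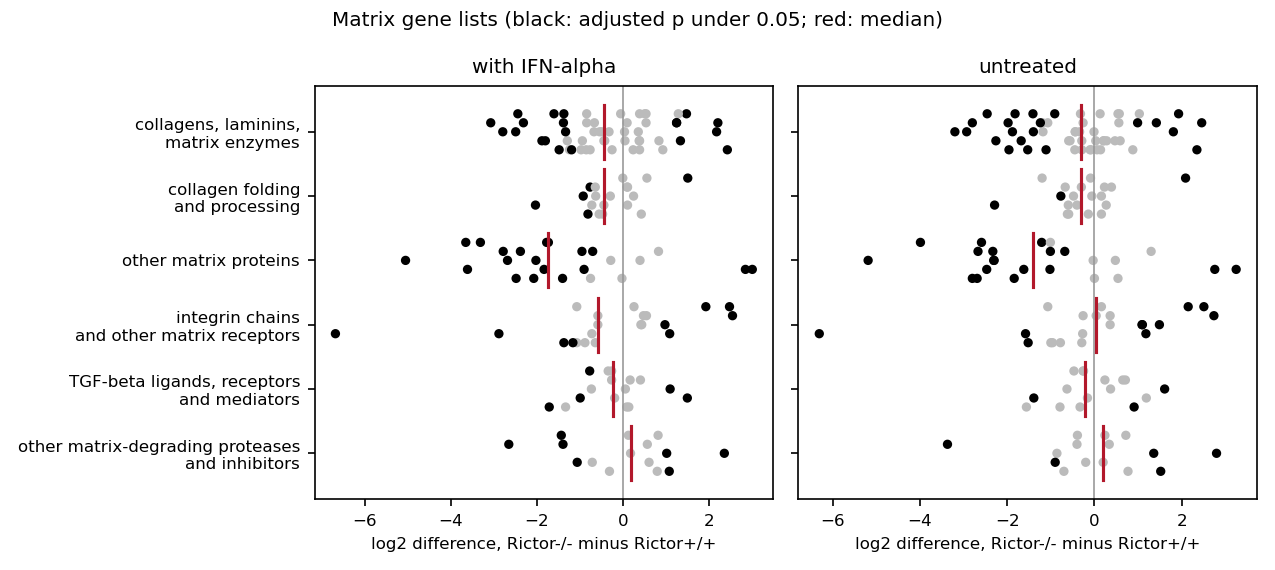
Log2 difference between Rictor-/- and Rictor+/+ cells for each tested gene of 6 matrix lists (points; black for a limma adjusted p under 0.05) with the list's median (red line), with IFN-alpha (left) and untreated (right). Of the 6 lists, the other matrix proteins have the lowest median, -1.75 and -1.41, and the members lie on both sides of 0.

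Other fibroblast markers differed between the lines as well. Of 9 annotated fibroblast markers, S100a4 was higher and Fap, Pdgfra and Twist2 were lower in Rictor-/- cells in both comparisons. That is 44.4% called in each, where 26.6% of all named genes were called with IFN-alpha and 22.2% without. Pdgfra, a receptor of connective tissue cells, differed by -1.95 ± 0.31 and -1.91 ± 0.31. S100a4 fell with IFN-alpha in Rictor+/+ cells (-1.28 ± 0.30, adjusted p = 0.0456), and its response in Rictor-/- cells was not called (-0.17 ± 0.30). The summed linear level of the 9 markers was 58007 to 76844 in treated and 70417 to 84830 in untreated Rictor-/- cells, against 37257 to 50497 and 45319 to 63320 in treated and untreated Rictor+/+ cells. Most of this sum came from the probe of Vim, the gene for vimentin, with mean log2 levels of 15.49 and 15.61 in treated and untreated Rictor-/- cells, against 14.81 and 15.03 in treated and untreated Rictor+/+ cells, and it was not called (adjusted p = 0.0561 and 0.11). Of 3 annotated smooth muscle markers, Mylk was lower in Rictor-/- cells in both comparisons, and Tagln was higher in treated Rictor-/- than treated Rictor+/+ cells. That is 66.7% called with IFN-alpha and 33.3% without, to set beside the same 26.6% and 22.2%. Tagln itself fell with IFN-alpha in Rictor+/+ cells (-1.54 ± 0.23, adjusted p = 0.00154). Its response in Rictor-/- cells, -0.72 ± 0.23, was not called (adjusted p = 0.477). The sum of the 3 smooth muscle markers was 47398 to 60631 and 55429 to 61445 in treated and untreated Rictor-/- cells, against 56324 to 65691 and 60187 to 64935 in Rictor+/+ cells. Most of it came from the probe of Acta2, which was not called (-0.14 ± 0.18 with IFN-alpha and -0.03 ± 0.18 without). The part of these markers in the matrix results was not tested.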

How the data were processed

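RNA of 12 MEF samples was hybridised to Illumina BeadChips. The table the authors deposited without normalization holds linear bead intensity for 45281 probes, read out with BeadStudio per the submitters' processing notes (version not stated). The deposited second table holds log2 values of 17003 probes, normalized by a method not given in the sources used here; it served as an alternative. Gene names come from the platform annotation of those probes, which can be old, so counts of named genes cover only these.

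In R 4.3.3 with limma 3.58.1, the mode of an array's log2 signals served as its background, and the signals under the mode gave the SD. Then came the normexp correction with an offset of 16, which compresses differences of dim genes, quantile normalization, which cannot show a shift of all genes, and log2. Probes above background (upper-tail p under 0.01) on at least 3 arrays were kept: 20858, of which 11868 name 1 gene. The brightest kept probe stands for a gene. A model with 4 group means was fitted to all 12 arrays (8 residual and 4.51 prior degrees of freedom), with two-sided moderated tests adjusted by Benjamini-Hochberg over 17262 features. Where a group was below background on all 3 arrays, a fold is a lower bound against the higher of the probe's own level and the lowest signal well above background. With 3 arrays a group the SE of a member's difference had a median of 0.33, and of 0.46 for a difference of responses, so array number limits precision. The script was tested on simulated data.

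Named are members called in a comparison, 18 members named whatever their values, and up to 4 called genes per direction of each other list. Col4a5, Col5a2, Col6a1, Col6a2, Col7a1 and Loxl4 were added after their values were seen. Outside these rules, Adamts4, Adamts15, Col5a3, Col8a1, Col11a1, Col18a1 and Lamc3 are named too, none of them called by its brightest probe. So are the members not tested and some cell type markers that were not called. The members and lists were chosen with earlier results of these data known. Alternatives were another or no background correction, median scaling, cyclic loess, other filters, the mean of a gene's probes, array weights, the background set as a block or alone, the deposited log2 values and each array left out.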

Additional observations from a re-analysis of the deposited data

How the results depend on the processing

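All 44 called results of members kept their direction in every one of the 24 alternatives that gave a value, and 27 kept their call in all but the 2 background sets alone, which hold 1 or 2 arrays a group. A further 17 results that were not called gained a call under at least 1 alternative. Among them were Adamts10 (11 alternatives) and Mmp2 (8) untreated and Col5a1 (8), Lama5 (6), Mmp13 (5) and Sparc (4) with IFN-alpha. The 17 cover only members called in a comparison or named whatever their values. Members outside this count gained calls too. By limma on the deposited log2 values, Col7a1 (-1.03, adjusted p = 0.0303) and Col18a1 (-1.05, adjusted p = 0.0456) were lower untreated. Adamts4 was lower with IFN-alpha there (-0.66, adjusted p = 0.0376). With IFN-alpha the 7 higher members became 3 with median scaling, 11 with array weights, 3 in the high set and 1 in the low set, and the 13 lower became 20 with array weights and 5 in the low set. Untreated, the 6 higher became 10 with array weights and 0 in the low set (6 at an unadjusted p under 0.05 by limma), and the 16 lower became 7 in the high set and 7 in the low set. For IFN-alpha in Rictor+/+ cells the 2 higher became 1 with median scaling, 0 in the high set (2 unadjusted) and 0 in the low set (1 unadjusted), and the 0 lower (7 unadjusted) became 1 with cyclic loess and 2 with array weights. With each array left out in turn these counts were 7 to 8, 10 to 16, 6 to 7, 10 to 18, 1 to 2 and 0 to 1, and 0 members were called for IFN-alpha in Rictor-/- cells or for the difference of responses throughout. The cause of these moves was not tested, apart from the fewer arrays in a set. Median scaling shifted the median of all named genes to -0.40 with IFN-alpha between the lines, -0.29 for IFN-alpha in Rictor-/- cells and -0.31 for the difference of responses. Array weights gave array 12 a weight of 0.25 and array 7 one of 4.33. No paired analysis was possible because the groups share no replicate numbers in the labels, which name no rounds. Dim members near background, such as Lum, Col6a5 and Col4a6, have only bounds in Rictor-/- cells.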

Other observations

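The line accounted for more of the variance of the matrix genes than IFN-alpha did. Over the 52 tested members the median share of a gene's variance across the 12 arrays was 47.4% for the line, 4.6% for IFN-alpha, 1.1% for their interaction and 28.8% within groups, beside 31.9%, 4.2%, 2.4% and 45.9% over all named genes tested. The line held over 50% of the variance in 25 of 52 members and in 2952 of 8272 named genes. Timp1 had the highest share for the line, 95.6%, followed by Col4a6 with 94.1%. These shares describe the same arrays as the comparisons above and were not tested.

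Of 24 members with several kept probes, all probes of a gene had the same sign between the lines in 23 with IFN-alpha and 22 without. The exceptions were Col8a1, whose probes gave 0.10 and -0.28 with IFN-alpha and -0.26 and 0.38 without, and Adamts6, whose probes gave 0.21 and -0.24 without. None of these 6 values was called.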
